A study of Mus musculus with 8 samples.

Results

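Granzyme B (Gzmb, ENSMUSG00000015437) is 1 of the 27998 genes in the deposited count tables, and it was chosen because earlier results on these libraries had shown it higher after IFNα and had described it as induced late and in stem-like cells. Its levels are therefore given as a description, without a test. The libraries hold 10046 cells with 1 hashtag, 700 or more detected genes and no more than 5% mitochondrial UMIs, where a UMI (unique molecular identifier) stands for 1 captured mRNA molecule. Of these cells, 151 held at least 1 Gzmb UMI and are called Gzmb-positive here. They were 27 of 2474 cells in control, 30 of 1661 at 3 h, 50 of 3462 at 24 h and 44 of 2449 at 72 h.

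All mice were wild type and 12 to 14 weeks old, and the 4 groups differed in the injection and in the time until collection. Treated mice had received recombinant mouse IFNα under the skin, 50000 IU per 20 g of body weight, 3, 24 or 72 h earlier, and control mice had received 100 µl of PBS. Bone marrow cells without lineage markers and with c-Kit (LK cells) were sorted and mixed with additional sorted LK CD150+ CD48- CD34- cells, a gate for hematopoietic stem cells (HSCs). The shares of cells below therefore describe a sorted and enriched mixture. Cells of the 4 mice of a group carried 4 hashtag antibodies and went into 1 droplet library, so that the time point and the library cannot be told apart. Control mouse 4 contributed 58 cells, and the others between 330 and 1240. The libraries had medians of 12017 to 18964.5 UMIs per cell. The kept cells of a mouse held 1102706 to 26446327 UMIs, and 3 of the 6 pairs of libraries shared 1 cell barcode each.

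Granzyme B is a serine protease of secretory granules that cleaves its substrates after aspartate. In cytotoxic T cells and NK cells it is stored with serglycin, enters target cells with the help of perforin and cuts proteins such as Bid. Mast cells are also known to store it, and its gene lies in a cluster of related proteases that includes the mast cell chymases.

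On GRCm38 (mm10), GENCODE vM21 places Gzmb on the minus strand of chromosome 14 from 56258838 to 56262260 and gives it 1 transcript of 5 exons. The 250 bases before its RefSeq start, which is 74 bases upstream of the GENCODE start, are at chr14:56262335-56262584 on GRCm38.p6 and are shown 5′ to 3′ as transcribed, because they hold motifs of factor families whose genes are among the regulators listed for Gzmb.
Gzmb promoter: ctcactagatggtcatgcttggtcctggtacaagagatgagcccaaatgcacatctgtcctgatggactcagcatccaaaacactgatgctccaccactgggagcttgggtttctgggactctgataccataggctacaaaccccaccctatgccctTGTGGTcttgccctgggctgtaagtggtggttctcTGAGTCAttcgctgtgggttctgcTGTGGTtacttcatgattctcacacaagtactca
The capitals mark matches to the RUNX motif TGTGGT, which begin 93 and 34 bases before the start, and a match to the AP-1 motif TGANTCA, which begins 58 bases before it. On either strand, TGTGGT was present in 14.0% and TGANTCA in 6.75% of the 32851 RefSeq promoter windows of the same length. The E-box letters CANNTG matched at 207 and 199 bases before the start and were present in 66.2% of the windows, and none of these matches overlapped another motif. Neither the interferon-response letters GAAA, any 2 bases and GAAA again (2.98% of windows), the GAS letters TTCNNNGAA (7.02%), the CRE letters TGACGTCA (1.55%) and their core ACGTCA (6.47%), nor the GATA letters AGATAA (9.99%) and TGATAA (7.94%) were found in this window.

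The level of Gzmb over all kept cells of a mouse was taken as CPM, the UMIs summed per mouse and scaled to a common total with edgeR's TMM factors. In control mice 1 to 4 it was 5.69, 0.682, 4.44 and 8.73 CPM. At 3 h it was 51.5, 22.4, 7.64 and 15.1 CPM. At 24 h the 4 mice were at 20.6, 24.3, 17.6 and 15.7 CPM.
The 72 h mice, with 31.8, 22.4, 21.8 and 15.3 CPM, lay above every control mouse, as did those of 24 h, whereas 3 h mouse 3 lay below control mouse 4. The control mean was 4.88 ± 3.33, and the treated means were 24.2 ± 19.2, 19.6 ± 3.75 and 22.8 ± 6.79 (SD, n = 4 mice each). The log2 fold changes against control, from edgeR's fit over all 16 mice, were 2.58 at 3 h (standard error 0.49), 2.36 at 24 h (0.43) and 2.61 at 72 h (0.44). The largest spread between mice was at 3 h, and without 3 h mouse 1 the mean there was 15.1 CPM, below that at 72 h. Over all kept cells the values thus show Gzmb above the control mean in all 4 mice at 3 h and give no clear order among the time points.

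**Figure D1:**
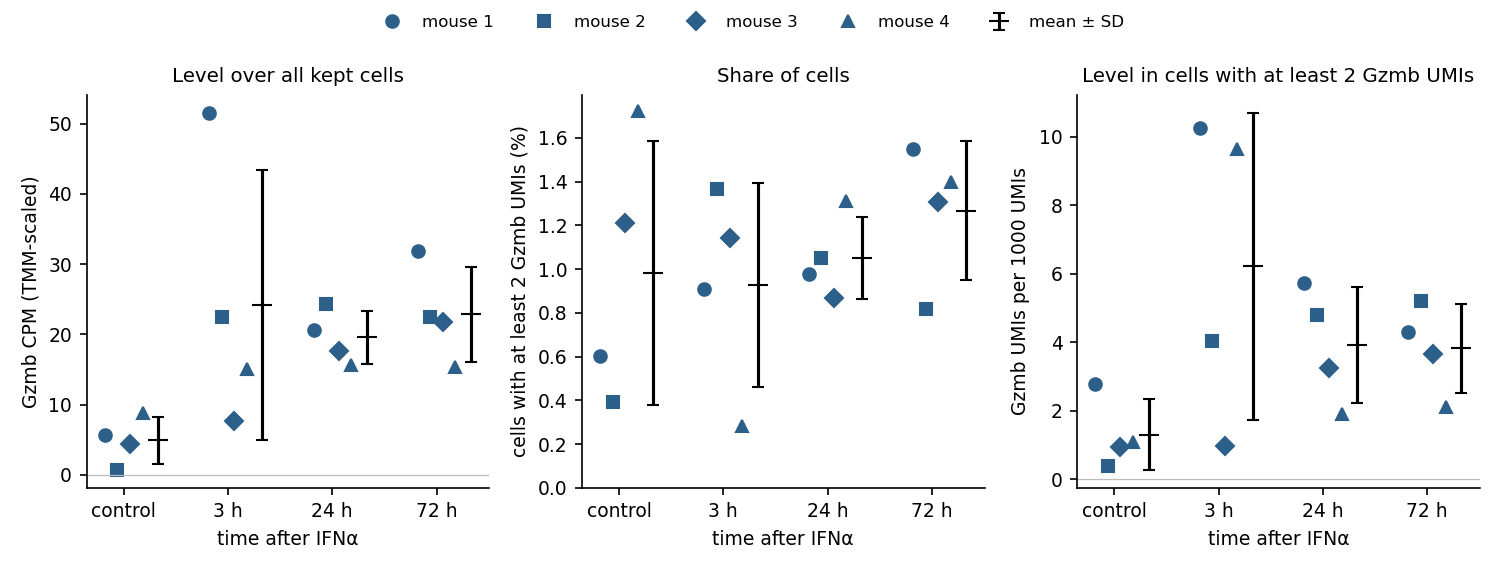
Gzmb by mouse and time after IFNα (0 to 72 h), with a symbol per mouse and the mean ± SD of 4 mice in black. The left panel plots CPM over all kept cells, where means rise from 4.88 in control to 24.2, 19.6 and 22.8, the middle panel the share of cells with at least 2 Gzmb UMIs in percent, where all groups overlap, and the right panel Gzmb UMIs per 1000 UMIs within those cells.

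These sums rested on few cells with many UMIs. The kept cells held 3259 Gzmb UMIs, which from the control to the 72 h library were 215, 480, 1529 and 1035. The 104 cells with at least 2 UMIs carried 98.6% of them, and the 50 cells with more than 20 UMIs carried 84.0%. Of those 50 cells the same libraries held 3, 6, 22 and 19. Single cells could set the value of a mouse: the 61 to 238 UMIs of the 3 h mice include 74 from 1 cell of mouse 4, whose total was 77, and control mouse 2 had 12 UMIs in 4 cells. The remaining 47 positive cells held a single UMI.

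The share of cells with Gzmb and the amount per cell were read separately. Cells with at least 2 Gzmb UMIs made up 0.605, 0.393, 1.21 and 1.72% of the cells of control mice 1 to 4. They made up 0.909, 1.37, 1.14 and 0.284% at 3 h, 0.979, 1.05, 0.866 and 1.31% at 24 h, and 1.55, 0.818, 1.31 and 1.40% at 72 h. The groups overlapped at each time point, with means of 0.983 ± 0.604, 0.925 ± 0.466, 1.05 ± 0.189 and 1.27 ± 0.316% (SD, n = 4 mice). With cells of at least 5000 UMIs thinned to 5000, the mean share of cells with Gzmb was 1.09% in control. It was 1.05, 1.07 and 1.36% after 3, 24 and 72 h. Cells of fewer UMIs were left out, among them cells of 3 h mouse 2 with 13, 20 and 38 Gzmb UMIs. The thinned share of that mouse was 0.808%. The control means rest on mouse 4, whose 57 cells of sufficient depth gave 2.57%, beside 0.514, 0.400 and 0.864% in mice 1 to 3. Without it the control mean was 0.593% thinned and 0.736% for cells with at least 2 UMIs, both below every treated mean.
Within the cells of at least 2 UMIs, Gzmb made up 2.78, 0.383, 0.942 and 1.08 of 1000 UMIs in control mice 1 to 4. It made up 10.2, 4.04, 0.955 and 9.64 of 1000 at 3 h, 5.74, 4.78, 3.25 and 1.91 at 24 h, and 4.31, 5.19, 3.66 and 2.09 at 72 h. The control mean was 1.30 ± 1.03, and the treated means in order of time were 6.22 ± 4.48, 3.92 ± 1.69 and 3.81 ± 1.31 (SD, n = 4 mice), with control mouse 1 inside the range of each treated group. The median number of Gzmb UMIs in such a cell was 4 in control and 14.5, 25 and 24.5 after 3, 24 and 72 h, and the highest was 51, 111, 158 and 108. Their median total was 8760 UMIs, compared with 12879 in cells with a single Gzmb UMI and 16647 in cells with 0.

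**Figure D2:**
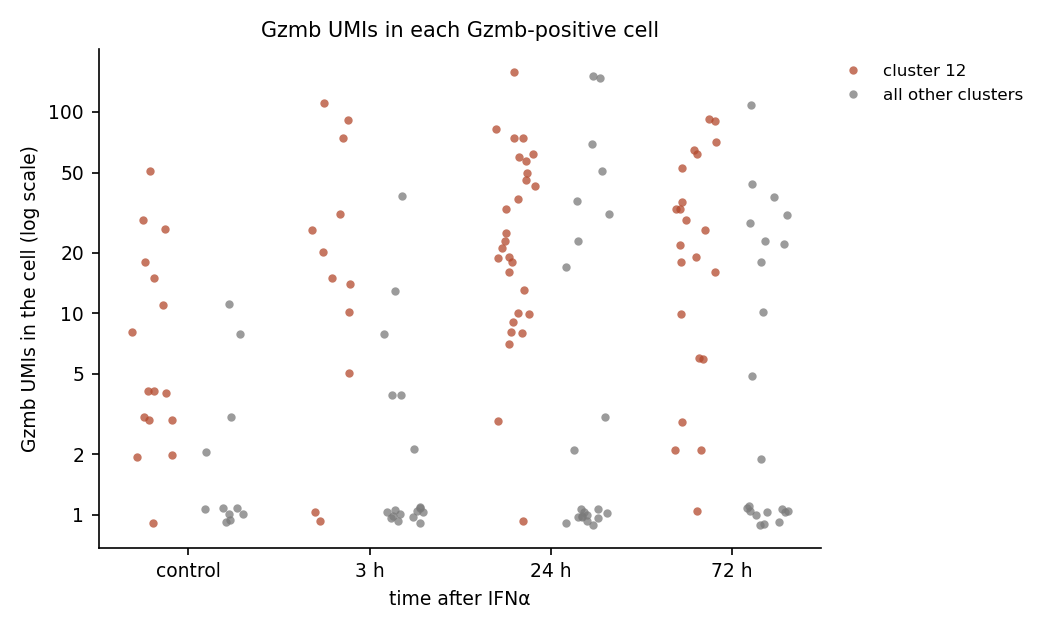
Gzmb UMIs in each of the 151 Gzmb-positive cells (log scale, points jittered) by time after IFNα, with cells of cluster 12 in red and all other cells in grey. The median of cells with at least 2 UMIs rises from 4 in control to 14.5, 25 and 24.5, and single UMIs lie mostly outside cluster 12.

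Clustering of the control cells into 14 clusters, with labels transferred to the treated cells, placed most of the Gzmb in cluster 12. Its leading genes by fold were Gzmb itself, Scin, Gm17590, Csrp3, Trib2 and St8sia6. Gzmb had been left out of the clustering and of the label transfer. The listed cell type markers gave the cluster no name. The cluster held 270 cells, of which 78 were positive and 73 had at least 2 UMIs. They carried 2264 UMIs, which was 69.5% of all Gzmb UMIs. The positive cells were 16 of 62 in control (25.8%, 95% exact binomial interval 15.5 to 38.5), 12 of 57 at 3 h (21.1%, 11.4 to 33.9), 28 of 73 at 24 h (38.4%, 27.2 to 50.5) and 22 of 78 at 72 h (28.2%, 18.6 to 39.5). These intervals cover counting error within a library only.

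Over the cells of cluster 12, Gzmb was at 633, 62.7 and 266 CPM in control mice 1 to 3, where only mice with at least 10 such cells were used. Mice 1 and 3 of 3 h were at 2593 and 207 CPM, and mice 2 to 4 of 24 h at 2032, 509 and 795 CPM. The 72 h mice were at 1072, 1626, 820 and 575 CPM. The means were 321 ± 289 in control (SD, n = 3), 1112 ± 809 at 24 h (SD, n = 3) and 1023 ± 450 at 72 h (SD, n = 4). Control mouse 1 lay above the lowest mouse of every treated group. Without control mouse 1 the control mean was 164 CPM, and without 24 h mouse 2 the 24 h mean was 652 CPM.

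**Figure D3:**
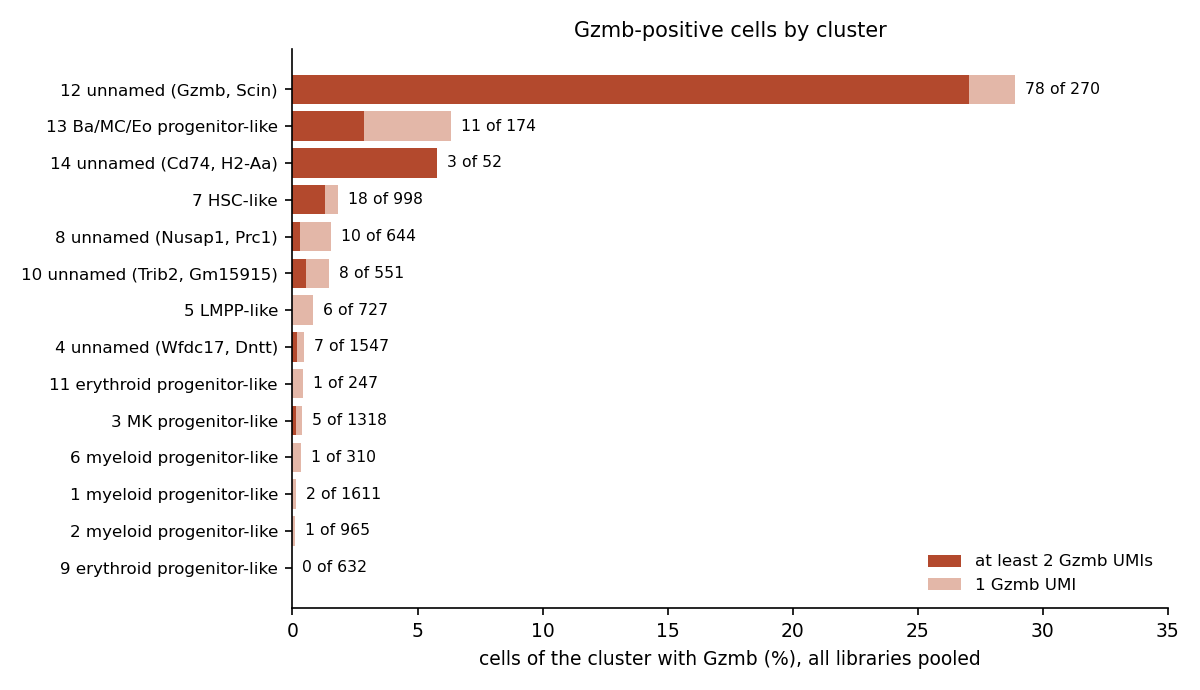
Share of Gzmb-positive cells in each of the 14 clusters in percent, all libraries pooled, split into cells with at least 2 UMIs (dark) and 1 UMI (light), with the number of positive cells of all cells at each bar. Cluster 12 stands at 28.9%, followed by the Ba/MC/Eo progenitor-like cluster at 6.32%.

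Outside cluster 12, positive cells were 11 of 174 in the cluster named basophil, mast cell and eosinophil (Ba/MC/Eo) progenitor-like after Prss34, Prg2, Mcpt8 and Ms4a2, 3 of 52 in the unnamed cluster led by Cd74 and H2-Aa, 18 of 998 in the HSC-like cluster, 10 of 644 in the cycling cluster led by Nusap1 and Prc1 and 8 of 551 in the cluster led by Trib2 and Gm15915. The megakaryocyte (MK) progenitor-like cluster held 5 of 1318 with 154 UMIs, and 148 of these came from 1 cell of 24 h mouse 3, whose total was 261. Cluster 4, unnamed and led by Wfdc17 and Dntt with Hlf and Ly6a among its leading genes, held 7 of 1547, of which 3 had at least 2 UMIs: 0 of 230 cells in control, 2 of 326 at 3 h, 3 of 528 at 24 h and 2 of 463 at 72 h. The LMPP-like cluster, lymphoid-primed progenitors with Dntt and Flt3, had 6 positive cells of 727, all with a single UMI. The 2886 myeloid progenitor-like cells held 4 and the 879 erythroid progenitor-like cells held 1, each with a single UMI. The erythroid value was 0.114% at a median of 25009 UMIs per cell, in cells not known to use this gene. The median was 8678.5 UMIs in cluster 12. Single-UMI shares differed between libraries, up to 3.81% of the cells of the cycling cluster at 3 h, so the erythroid value alone does not set a background for each library.

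Because Gzmb had been described in stem-like cells, the HSC-like cluster was examined cell by cell. It held 637 Gzmb UMIs, 19.5% of the total. None of its 180 control cells held a Gzmb UMI, which allows a share of such cells of up to 1.67% at 3 counts and 2.03% by the exact interval. Positive were 3 of 225 at 3 h (1.33%, 0.276 to 3.85), 6 of 325 at 24 h (1.85%, 0.680 to 3.97) and 9 of 268 at 72 h (3.36%, 1.55 to 6.28). The interval of each treated time point, 72 h included, overlaps that of control, which reaches 2.03%. These intervals pool the cells of a library and cover counting error only, not the spread between mice. Within the HSC-like cells of a mouse, in CPM by library size alone, Gzmb was at 0 in all control mice and at 3.53, 33.8, 1.25 and 0 in mice 1 to 4 of 3 h. It was at 95.1, 135, 0 and 114 at 24 h and at 232, 0, 48.6 and 98.0 at 72 h. In this cluster 3 of 4 mice at 24 h and 3 of 4 at 72 h lay above all mice of 3 h. These levels rest on 15 UMIs at 3 h, 339 at 24 h and 283 at 72 h, and whether they differ in time from the other cells was not tested. The positive cells came from 3 of 4 mice at each treated time point, and 72 h mouse 1 gave 5 of them.
Of its 13 cells with at least 2 Gzmb UMIs, none held a UMI of Hlf, the transcription factor that marks HSCs. All 13 held Gata2, 12 held Cpa3 (mast cell carboxypeptidase A), 9 held Ms4a2 (the beta chain of the high-affinity IgE receptor) and 7 held Cma1 (a mast cell chymase). In the 980 HSC-like cells without Gzmb, Hlf was detected in 82.3%, Cpa3 in 6.94%, Gata2 in 60.1%, Ms4a2 in 1.53% and Cma1 in none. The highest of the 13, from 24 h mouse 2, held 151 Gzmb, 142 Cma1 and 118 Cpa3 UMIs and none of Hlf. The other 5 positive HSC-like cells had a single Gzmb UMI, and 2 of these held Hlf. The HSC markers were split in these cells. The 13 held neither Hlf nor Ly6a, both of them HSC markers by which the cluster had been named, but all held Gata2, another listed one. The 10 listed HSC markers summed to 1314 CPM in the 18 positive HSC-like cells and to 1448 CPM in the 980 without Gzmb. The median marker of the list was detected in 8.33 and 47.8% of these cells. Since the rule named Hlf, this is a description, and whether the cells are stem-like was not tested.

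Hlf and Gzmb were also counted without clusters. Of 2437 cells with at least 2 Hlf UMIs, 7 held Gzmb (0.287%), and 1 of these had at least 2 Gzmb UMIs. A group without Cpa3 leaves out most cells with at least 2 Gzmb UMIs beforehand, so its counts below are a description only. Among 2075 cells with at least 2 Hlf UMIs and no Cpa3, 5 held Gzmb, each as a single UMI: 1 of 477 in control, 0 of 293 at 3 h, 3 of 779 at 24 h and 1 of 526 at 72 h. Their share over all libraries was 0.241%. Cells with both Cpa3 and Ms4a2 numbered 690, of which 100 were positive, and these held 2916 Gzmb UMIs, 89.5% of all. The positive ones were 18 of 148 in control, 13 of 92 at 3 h, 38 of 256 at 24 h and 31 of 194 at 72 h. Cells with neither gene numbered 7187, of which 30 were positive, 3 of them with at least 2 UMIs, and they held 35 Gzmb UMIs, 1.07% of all. By library the positive ones were 4 of 1825 in control (0.219%), 12 of 1228 at 3 h (0.977%), 6 of 2409 at 24 h (0.249%) and 8 of 1725 at 72 h (0.464%).

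Within the cells with both Cpa3 and Ms4a2, chosen as a group after the data had been seen, Gzmb was at 83.4, 8.36 and 61.9 CPM in control mice 1 to 3, and control mouse 4 had too few such cells. It was at 907, 262, 86.0 and 241 CPM at 3 h, at 301, 326, 286 and 190 CPM at 24 h, and at 442, 271, 275 and 195 CPM at 72 h. With TMM factors all treated mice lay above these 3 control mice, with 3 h mouse 3 closest to them. By library size alone, 3 h mouse 3 was at 81.9 CPM, below control mouse 1 at 85.8 CPM. It was also below control mouse 4, at 134 CPM in 3 such cells. Ms4a2, also picked after its values were seen, itself varied in cluster 12, from 128 ± 32.6 CPM in control (SD, n = 3) to 33.4 and 45.4 CPM in the 2 mice of 3 h and to 268 ± 115 CPM at 24 h (SD, n = 3). These Ms4a2 changes had log2 fold changes of -1.60 (standard error 0.48, adjusted p = 0.0342) and 1.03 (0.26, adjusted p = 0.0265) by the quasi-likelihood test of edgeR, adjusted after Benjamini and Hochberg. Neither call remained with DESeq2, and leaving out control mouse 3 or a 3 h mouse ended the first, and leaving out control mouse 1 or 2 or 24 h mouse 2 or 4 the second.

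Co-detection set the cells with at least 2 Gzmb UMIs apart from the rest of the marrow (104 and 9895 cells). Hlf was detected in 6.73% of them and in 39.7% of cells without Gzmb, the lymphoid and progenitor receptor gene Flt3 in 3.85 and 20.9%, and Cd34 in 64.4 and 66.6%. By time point, from control to 72 h, the Hlf shares were 10.5, 0, 10.8 and 3.12% of 19, 16, 37 and 32 cells. Since the rule named these genes, their shares are a description. Cells with a single Gzmb UMI held Hlf in 34.0%, Flt3 in 17.0% and Cpa3 in 42.6%, in each case between the values of the other cells.
Gata2, a transcription factor of stem, mast and megakaryocyte cells, was found in 99.0% of the cells with at least 2 Gzmb UMIs, Cpa3 in 96.2%, the actin-severing Scin in 91.3%, Ms4a2 in 81.7% and Id2, an inhibitor of E proteins, in 73.1%. In cells without Gzmb these were 55.1, 26.0, 6.53, 7.62 and 5.47%. Kit was in 82.7 and 76.4%, the IL-33 receptor gene Il1rl1 in 52.9 and 8.52%, Fcer1a in 41.3 and 3.04% and Cma1 in 30.8 and 0.0808%. The contrast remained when cells of at least 5000 UMIs were thinned to 5000 and the others left out, which gave 91 and 9711 cells. Of these, Cpa3 was in 93.3 and 17.1%, Ms4a2 in 74.8 and 5.20%, Id2 in 61.6 and 1.98%, and Hlf in 3.19 and 24.1%.
The eosinophil genes Prg2 and Epx had no UMI in the 104 cells, and Prss34 was in 4.81%. The basophil protease gene Mcpt8 was in 18.3%, compared with 13.4% of cells without Gzmb, and its summed level was 345 CPM compared with 44.3 CPM. The HSC genes Mecom and Procr were in 3.85 and 0.962%. The 10 listed HSC markers, Gata2 among them, summed to 816 CPM, compared with 309 CPM in cells without Gzmb.

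**Figure D4:**
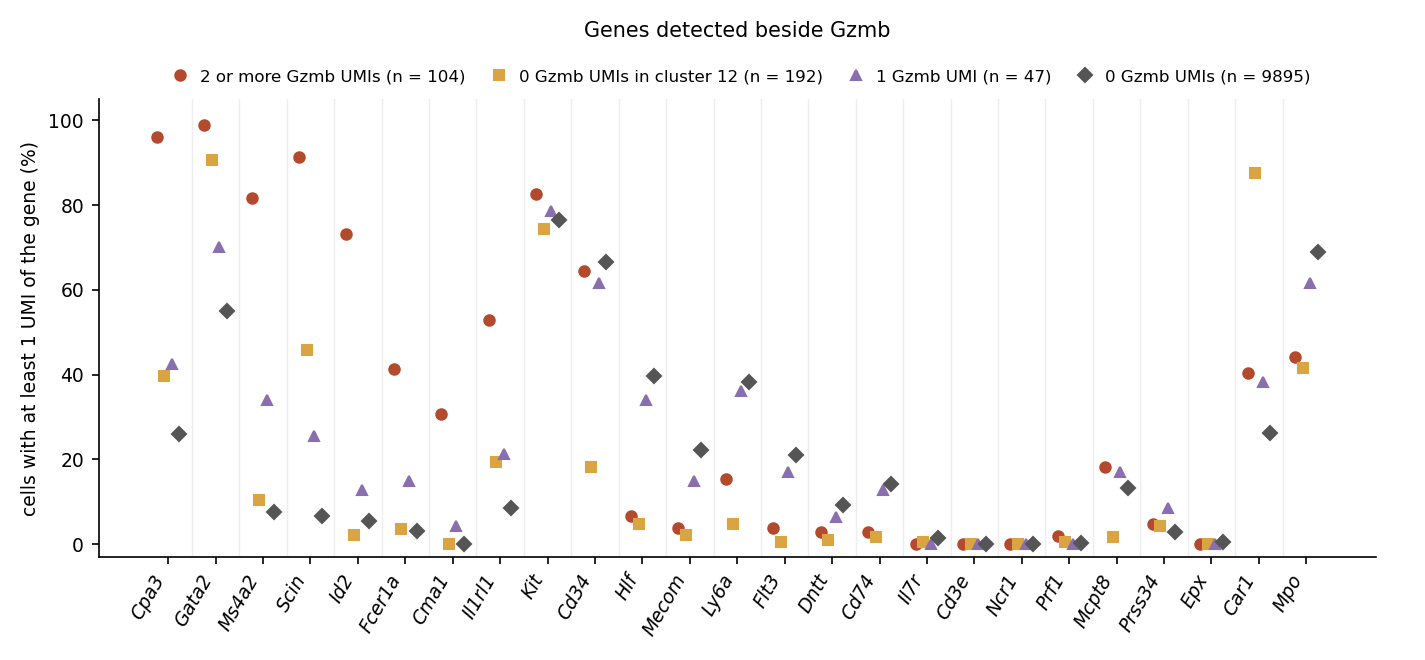
Share of cells with at least 1 UMI of each named gene, in percent, for cells with 2 or more Gzmb UMIs (n = 104), cluster 12 cells without Gzmb (n = 192), cells with 1 Gzmb UMI (n = 47) and all cells without Gzmb (n = 9895). Cpa3, Ms4a2, Scin, Id2 and Cma1 are highest in the first kind, Car1 in the second, and Cd3e, Ncr1 and Epx lie at or near 0 in all.

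Within cluster 12, the 192 cells without Gzmb carried another set of genes. They held Gata2 in 90.6% and Scin in 45.8%, but Cpa3 in 39.6%, Ms4a2 in 10.4%, Id2 in 2.08%, Cd34 in 18.2% and Cma1 in none. The erythroid genes Car1 and Klf1 were in 87.5 and 68.8% of them, and in 40.4 and 20.2% of the cells with at least 2 Gzmb UMIs. The summed CPM of the 9 erythroid progenitor markers was 2377 in these cells and 449 in the cluster's cells with at least 2 Gzmb UMIs, and that of the 9 Ba/MC/Eo markers was 296 and 4349.

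Markers of cells best known for granzyme B were nearly absent. Of the 7 T cell markers in the files, Cd3d, Cd3e, Cd8a, Cd4 and Cd28 had no UMI in the 104 cells with at least 2 Gzmb UMIs, and the summed level of the list was 4.04 CPM compared with 5.82 CPM in cells without Gzmb. Of 10 NK cell markers, 7 were at 0, among them Ncr1, Klrb1c and Gzma. The NK list summed to 898 CPM, nearly all of it Nkg7, a granule membrane gene that 98.1% of these cells and 76.6% of cells without Gzmb held. Perforin (Prf1) was detected in 2 of the 104 cells. The markers listed for innate lymphoid cells were split: Il7r and Tcf7 were at 0 and Gata3 was in 1.92% of the 104 cells, while Id2 and Il1rl1 were in more, as given above, Rora in 23.1% and Zbtb16 in 19.2%. This list summed to 664 CPM, compared with 34.4 CPM in cells without Gzmb, with 479 CPM from Id2 and 122 CPM from Il1rl1, which mast cells are also known to use. The part of innate lymphoid cells in the result was not tested. Dntt was in 2.88%, Cd7 in 6.73% and the class II invariant chain Cd74 in 2.88%, compared with 14.2% for Cd74 in cells without Gzmb.

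The other granzymes were almost silent. In all kept cells, Gzmm had 100 UMIs in 97 cells, none of which had 2 Gzmb UMIs. Gzma had 40 UMIs in 2 cells, again outside the cells with 2 Gzmb UMIs. Gzmc, the neighbor whose start lies 27.6 kb away, had 13 UMIs in 6 cells, of which 4 had at least 2 Gzmb UMIs. Gzmd had 1 UMI, and Gzme, Gzmf, Gzmg, Gzmk and Gzmn had none.
At the far end of the gene cluster, the chymase gene Cma1 (chromosome 14, 55941451 to 55944675, 318 kb from the Gzmb start) had 554 UMIs in 42 cells, of which 32 had at least 2 Gzmb UMIs. Cma2, 311 kb away, had 12 UMIs in 6 cells, all with at least 2 Gzmb UMIs. The genes between these and Gzmb differed: Mcpt8 had 10281 UMIs in 1348 cells, of which 19 had at least 2 Gzmb UMIs, and the neutrophil protease gene Ctsg had 307281 UMIs in 5884 cells, of which 29 did. Mcpt1, Mcpt4 and Mcpt9 had no UMI. Granzymes and chymases are related in sequence, and reads shared between paralogs could be split or lost in counting.

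**Figure D5:**
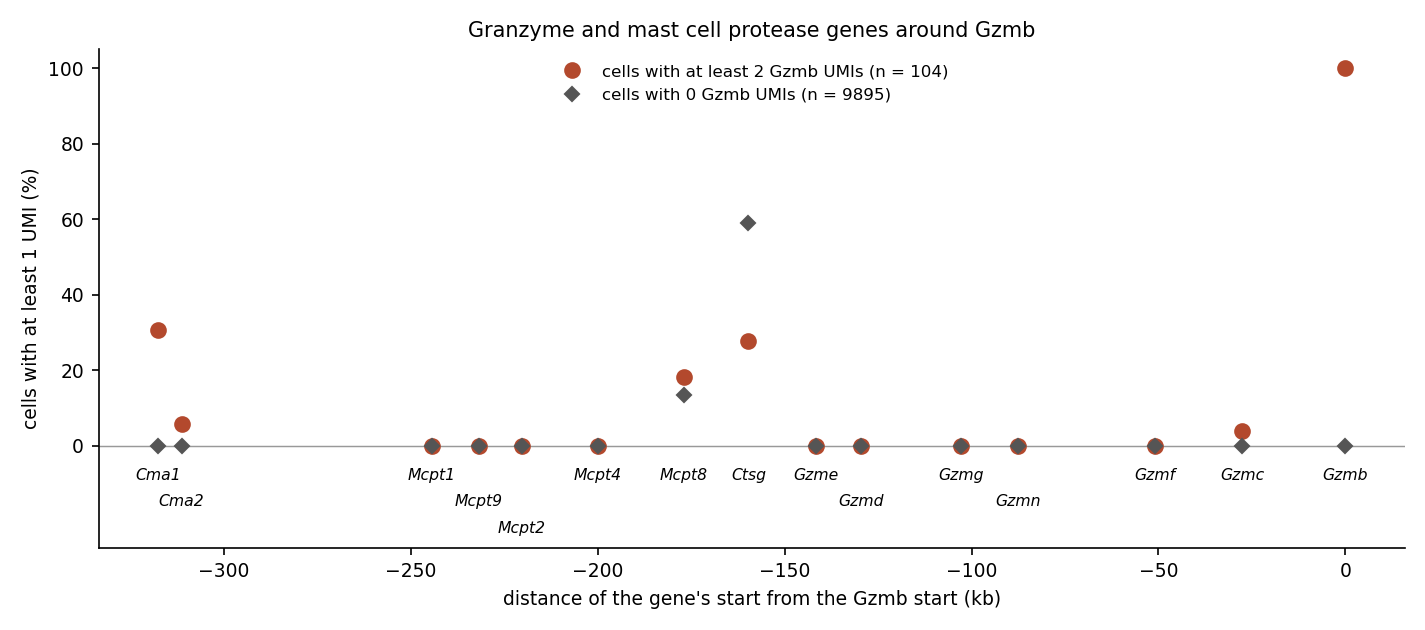
Share of cells with at least 1 UMI of each listed protease gene, in percent, against the distance of its start from the Gzmb start in kb (negative towards lower coordinates on chromosome 14). Cells with at least 2 Gzmb UMIs (red, n = 104) stand above cells with 0 (grey, n = 9895) at Cma1, Cma2 and Gzmc, and below them at Ctsg.

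Of the 3 listed locus neighbors with enough counts to be tested over time, Cma1 was called higher at each time point. Over all kept cells it was at 0.103, 0.114, 0.267 and 0 CPM in control mice 1 to 4. At 3 h it was at 1.73 and 7.76 CPM in mice 1 and 2 and at 0 in mice 3 and 4. It was at 4.14, 6.32, 1.56 and 7.38 CPM at 24 h, and at 1.40, 0.224, 3.84 and 2.91 CPM at 72 h.
All 24 h mice lay above every control mouse, 72 h mouse 2 lay inside the control range and the 3 h group was split. The log2 fold changes were 3.62 at 3 h (standard error 1.26, adjusted p = 0.0266), 4.90 at 24 h (0.89, adjusted p = 0.000299) and 3.67 at 72 h (1.09, adjusted p = 0.0114), all by edgeR's quasi-likelihood test. Among the 12042 genes tested, 831 (6.9%) passed at 3 h, 267 (2.22%) at 24 h and 345 (2.86%) at 72 h, where a gene passed if its log2 fold change exceeded 1 in size with adjusted p below 0.05. The control level rests on 9 UMIs in all, and single cells weighed much in the treated mice. Of 94 Cma1 UMIs at 72 h, 42 came from a single HSC-like cell of mouse 3 and 26 from another of mouse 4. Of 407 at 24 h, 142 came from a single HSC-like cell of mouse 2. The 3 h call ended without control mouse 1 or 2, and without 3 h mouse 2, when the log2 fold change was 1.48.
In cells with at least 2 Gzmb UMIs, Cma1 was detected in 2 of 19 in control, 4 of 16 at 3 h, 16 of 37 at 24 h and 10 of 32 at 72 h. Over all kept cells, Mcpt8 fell at 3 h by 1.71 on the log2 scale (standard error 0.39, adjusted p = 0.00117). At 72 h it was lower by 1.33 (0.33, adjusted p = 0.00309, both by edgeR's quasi-likelihood test). Its level over all kept cells went from 64.7 ± 45.4 CPM in control (SD, n = 4) to 24.5 ± 17.0 and 30.3 ± 10.5. In the cells with at least 2 Gzmb UMIs, pooled by library, Mcpt8 was not below its control level. It was at 50.0 CPM there in control and at 494, 449 and 288 CPM after 3, 24 and 72 h, which was not tested. Neither Mcpt8 call remained with DESeq2, and the 72 h call ended without control mouse 3, at a log2 fold change of -0.96. Of the 9 Ba/MC/Eo markers, Cma1 was called higher at each time point, and 5 were called lower at 3 h, 2 at 24 h and 5 at 72 h, among them Prg2 and Epx each time. In sums over a mouse, fewer cells of a type and less RNA per cell cannot be told apart.

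Within cluster 12, Cma1 was at 0, 5.70 and 0 CPM in control mice 1 to 3, and at 101, 9.25 and 589 CPM in mice 2 to 4 of 24 h (adjusted p = 0.000533, edgeR's quasi-likelihood test). At 72 h it was at 65.1, 16.3, 4.61 and 32.4 CPM, which did not pass. In this cluster 225 of 4238 tested genes passed at 3 h (5.31%), 34 at 24 h (0.802%) and 22 at 72 h (0.519%), over 12 mice.

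To compare positive and negative cells of the same mice, counts were summed per mouse and Gzmb status and fitted with the mouse as a block. The planned comparison needed at least 10 positive and 10 negative cells of a class in each of at least 3 mice of a time point, which no class reached. The fits below pooled all time points, needed 3 cells of each kind per mouse and were chosen after the data had been seen. In cluster 12 they used 76 positive and 185 negative cells of 14 mice, with median UMIs of 8860.5 and 8723 per cell. Of 891 genes tested, 236 were higher (26.5%) and 234 lower (26.3%) in positive cells, at an adjusted p under 0.05.
In the direction per mouse, a gene with no UMI in the few positive cells counts as lower if the negative cells hold any. A count of genes with the same direction in every mouse therefore favors lower genes. Of the called genes, 189 had the same direction in all 14 mice, of which 35 were higher. The 10 of these with the largest differences were 8 higher and 2 lower. Cpa3 was higher by a log2 fold change of 3.93 (standard error 0.28), the adaptor Tyrobp by 3.87 (0.24), Ptms by 3.68 (0.24) and the LIM protein gene Lmo4 by 3.67 (0.15). Lpcat2 at 3.37, Fcer1g (the gamma chain of Fc receptors) at 3.25, Itgb7 (an integrin of mast cell progenitors and gut homing) at 3.09 and the oxysterol receptor gene Gpr183 at 2.98 followed. Gm15915 was lower by 3.95 (0.30) and Clec4d by 2.96 (0.28) on the log2 scale. Adjusted p-values of these 10 lay between 6.73e-20 for Lmo4 and 1.31e-10 for Gpr183 (edgeR's quasi-likelihood test).
In the same fit, the serglycin gene Srgn, whose product holds granzymes in the granule, was higher by 1.33 (standard error 0.11, in 13 of 14 mice), Nkg7 by 1.04 (0.12, 14 of 14), Runx1 by 1.72 (0.16, 14 of 14), the common gamma chain gene Il2rg by 2.23 (0.20, 13 of 14) and the protease inhibitor gene Serpinb1a by 1.99 (0.25, 13 of 14). The erythroid genes Car1 and Car2 were lower in 14 of 14 mice, by log2 fold changes of -2.71 and -1.83. The counts moved with the scaling: with library sizes alone, 279 of 453 called genes were higher.

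Over the whole compartment, 151 positive cells were compared with 9895 negative cells of the same 16 mice, at median UMIs of 9830 and 16647 per cell. The negative cells hold all types of the sort, so the comparison joins differences between cell types with those between cells of a type. Of 6433 genes tested, 855 were higher (13.3%) and 1482 lower (23%) in positive cells. With library sizes alone, 1158 of 2143 called genes were higher.
The direction per mouse again favors lower genes: Nusap1, which was not called, had a log2 fold change of 0.33 but was higher in only 4 of 16 mice. In all 16 mice 545 called genes had the same direction, of which 43 were higher. The 10 with the largest differences were Scin (6.15, standard error 0.15), Gpr183 (5.57, 0.25), the Notch target Hes1 (4.98, 0.36), Slc45a3 (3.81, 0.19), Itgb7 (3.71, 0.16), Lpcat2 (3.18, 0.17), Lag3 (between Lpcat2 and Sdpr in size, 0.21), Sdpr (-3.07, 0.42), Snap47 (3.05, 0.18) and Klf6 (2.99, 0.18), as log2 fold changes. All passed with adjusted p-values between 1.66e-28 for Scin and 3.6e-07 for Sdpr (edgeR's quasi-likelihood test). Itgb7, Lpcat2 and Gpr183 were thus among the first 10 in both comparisons.

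The genes of the granzyme pathway in these cells were read from lists chosen with earlier results known. Of 8 tested granule machinery genes, 5 were higher in positive cells of the whole compartment (Tnfsf10, Nkg7, Srgn, Stxbp2 and Unc13d, 0.51 to 1.18 on the log2 scale) and 2 were lower (Lamp1 at -0.49 and Rab27a at -0.61). The median of the list was 0.56, beside -0.10 for all tested genes. Stxbp2 and Unc13d, which act in granule docking and priming, and Tnfsf10 lost their calls in cells of 10000 to 30000 UMIs, as did Rab27a, which also lost it under DESeq2, with library sizes alone and when any of 10 of the 16 mice was left out. Of the 3 cathepsin genes of granzyme processing, Ctsc, whose product activates granzymes by removing a dipeptide, was higher by 0.95 (standard error 0.20) and Ctsh lower by 1.16 (0.30), and neither call remained in the cells of 10000 to 30000 UMIs. That range left 53 positive cells of 9 mice, with medians of 13031 and 16923 UMIs in positive and negative cells.
Among the tested regulators, Id2 had the largest log2 fold change (5.34, standard error 0.26, 15 of 16 mice), followed by Jun (1.71, 0.12, 16 of 16), Ikzf1 (1.52, 0.13, 16 of 16) and Runx1 (1.40, 0.11, 16 of 16). Within cluster 12, Jun differed by 0.31 (0.15, higher in 7 of 14 mice) and Junb by 0.11 (0.20, 8 of 14), and neither passed. Stat3 was higher by 0.83, Junb by 0.71, Stat5b by 0.70 and Runx3 by 0.44, and the monocyte and dendritic cell factor Irf8 was lower by 1.16. Of these, Runx3, Junb, Stat5b and Irf8 did not pass among cells of 10000 to 30000 UMIs. Among the tested substrates, Dfna5 and Lmnb1 were lower by 0.79 and 0.58, both calls lost at that depth. Of 2 tested inhibitors, Serpina3g was lower by 1.01 (0.22, 16 of 16).
Of the 18 S phase genes, 17 were lower in positive cells, with a list median of -0.89, whereas of 20 G2/M genes 1 was higher (Kif23). Of 10 tested myeloid progenitor markers, 9 were lower, among them Elane at -3.87 and Mpo at -2.51, and 5 of 8 erythroid markers. Of 5 tested Ba/MC/Eo markers, Cpa3 (3.59), Ms4a2 (3.30) and Mcpt8 (3.25, but higher in only 10 of 16 mice) were higher and Ms4a3 (-1.59) was lower.

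The same lists were followed over time, in sums over all cells of a mouse. Interferon-stimulated genes (ISGs) showed the early response: 24 of 24 were called higher at 3 h, 19 of 24 at 24 h, and at 72 h none was higher and Oas2, Ifit3 and Ifit3b were lower. In cluster 12, where Gzmb lies, 20 of 21 tested ISGs were higher at 3 h, 6 at 24 h and none at 72 h. The median log2 fold change of the list there was 5.23, 1.30 and 0.11, beside -0.04, -0.01 and 0.01 for all tested genes. Gzmb was at 2.58, 2.36 and 2.61 over the whole compartment, which covers other cells and more mice. In cluster 12 itself, Gzmb was at 62.7 to 633 CPM in control and at 207 and 2593 CPM at 3 h. It was at 509 to 2032 CPM at 24 h and 575 to 1626 CPM at 72 h. Whether the time courses of Gzmb and the ISGs differ within the cluster was not tested.
Among the tested regulators, Irf1 (1.18, standard error 0.09) and Stat4 (1.12, 0.09) were higher and Irf8 (-1.12, 0.10) was lower at 3 h, and none was called at 24 or 72 h. Stat4 stayed below the fold threshold with library sizes alone, at 0.98. In cluster 12, Junb was at 1.00 (0.28) at 3 h, which did not pass when any of 5 mice was left out, with library sizes alone or with DESeq2.
Among 10 tested granule machinery genes, Tnfsf10, the gene of the death ligand TRAIL, rose at 3 h from 8.92 ± 1.15 to 49.5 ± 4.13 CPM (SD, n = 4 mice each), by 2.44 on the log2 scale, and no other gene of the list was called at any time point. Of 3 cathepsin genes, Ctsh fell by 1.61 (standard error 0.16) at 3 h. Of 6 inhibitors, Serpina3g rose at 3 h from 45.6 ± 18.1 to 369 ± 36.0 CPM and Serpina3f by 4.68 at 3 h and 2.07 at 24 h on the log2 scale. None of the 12 tested substrates passed over the whole compartment, while in cluster 12 Casp8 rose at 3 h from 63.1 ± 11.4 CPM (n = 3) to 122 and 162 CPM in 2 mice (1.26, standard error 0.32), a call that ended without 3 h mouse 3 and with DESeq2. Of 11 tested S phase genes in cluster 12, Mcm2, Mcm4, Mcm5, Mcm6 and Mcm7 were called higher at 3 h.

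Finally, the genes whose level over the mice was most like that of Gzmb were sought in cluster 12, over the 12 mice with at least 10 cells there. By Pearson's r of log2 CPM these were Tpm4 (0.94), Flna (0.86), Itgb7 (0.85), Ptms (0.84), Id2 (0.84), Anxa6 (0.84), Foxp1 (0.82), Fcer1g (0.81), Gpr34 (0.81) and Itm2c (0.81). Spearman's rho gave 4 of the same 10 genes. The 12 mice share 4 libraries, and a mouse whose cluster holds more positive cells has more of all genes of those cells. The r values are therefore a description.

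Barcodes left out by the filters also held Gzmb. They numbered 6 in control (84 UMIs), 1 at 3 h (1 UMI), 5 at 24 h (162 UMIs) and 10 at 72 h (50 UMIs). Hashtag multiplets gave 4, 1, 4 and 5 of these, and doublets formed within 1 mouse, which hashtags cannot show, were not removed.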

How the data were processed

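The authors made UMI counts per gene and cell barcode with Cell Ranger 3.1.0 on mm10, assigned hashtags in Seurat and deposited the unnormalized counts with a table of each barcode's hashtag, including a deposited hashtag margin score that was not needed for the filters here. The annotation behind the counts is not given in the sources used here. Cells with a single hashtag, at least 700 genes and at most 5% mitochondrial UMIs were kept, and no doublet caller was run. Control cells were clustered without Gzmb (scanpy 1.11.5, leidenalg 0.10.2, 500 variable genes, resolution 0.8), and treated cells took the label of most of their 15 nearest control cells after a mutual nearest neighbor correction. Counts were summed per mouse and tested with edgeR 4.0.16 (quasi-likelihood test, TMM factors, filterByExpr, Benjamini-Hochberg over all tested genes) in R 4.3.3 and, as an alternative, with DESeq2 1.42.0. Other steps used Python 3.11.15, numpy 2.4.6, scipy 1.17.1 and pandas 2.3.3. The fits were tested on simulated data. Of 2-fold changes, which lie at the fold threshold, the fits over time recovered 53.1% over the whole compartment and 43.6% in cluster 12. Of 4-fold changes they recovered 100 and 91.8%. The fits of positive against negative cells recovered 88.4% of 2-fold changes over the whole compartment and 98.9% in cluster 12. A gene not called over time may therefore have changed by 2-fold. Genes and lists were chosen with earlier results of these data known. Some results of the listed genes are not reported here. Named genes were Gzmb, the called genes of the granzyme lists, the 10 genes most like Gzmb, and in each comparison of positive and negative cells the 10 largest called differences with 1 direction in every mouse. Ms4a2, Il2rg, Car1, Car2, marker genes and called members of other lists were named after their values were seen.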

Additional observations from a re-analysis of the deposited data

How the results depend on the processing

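The 73 results for single genes gave 1447 values under alternatives, of which 1371 kept their direction and side of the threshold, 76 lost the threshold and 0 reversed. Of the values for levels, shares and counts, 269 moved little and 33 moved further, and the cause was not tested. In cells outside cluster 12, an alternative chosen after seeing the data, Gzmb was at 0.831, 3.95, 7.21 and 7.15 CPM from control to 72 h, and the shares of positive cells were 1.16% in control (0.376% without control mouse 4), 1.15% at 3 h, 0.627% at 24 h and 0.908% at 72 h. With cells holding Cpa3 and Ms4a2 in place of cluster 12, also chosen after seeing the data, Gzmb was at 276 CPM at 24 h and 296 CPM at 72 h, and the shares were 11.2, 13.4, 14.8 and 15.4% from control to 72 h. This control share leaves out control mouse 4, which had 3 such cells and a share of 33.3%. With that mouse the control mean was 16.8%, above every treated mean. Counting cells with at least 2 UMIs gave 0.925% at 3 h and 1.05% at 24 h, and thinning gave 1.05% at 3 h. Without the filter on low counts, 413 genes were called at 24 h over the whole compartment, 68 at 24 h in cluster 12 and 1235 between its positive and negative cells. DESeq2 called 146, 17 and 3 genes in cluster 12 at 3, 24 and 72 h. Leaving out 1 mouse at a time gave 137 to 230 genes at 3 h (lowest without 3 h mouse 3), 20 to 41 at 24 h and 7 to 24 at 72 h in that cluster (both lowest without control mouse 2). Cells of 10000 to 30000 UMIs gave 297 called genes between positive and negative cells of cluster 12 and 651 over the whole compartment, where at least 2 Gzmb UMIs gave 3800. Spearman's rho gave 4 of the 10 genes most like Gzmb. Without the mouse as a replicate block, 446 genes instead of 470 were called in cluster 12 and 2579 instead of 2337 over the whole compartment, and positive and negative cells of a mouse are paired because they come from the same animal. The calls of Tnfsf10, Ctsh and Serpina3g over the whole compartment ended without the block. Hashtag numbers do not pair mice across time points. With library sizes alone, 529 of 831 genes called at 3 h were higher in place of 629, and in cluster 12 165 of 218 in place of 199 of 225. Few positive cells limit the precision: 19 control cells and 16 cells at 3 h held at least 2 Gzmb UMIs, so that single cells could set the level of a mouse.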
